A study of Mus musculus with 4 samples.

Results

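Lysosomal enzymes, lysosomal membrane proteins and subunits of the lysosomal proton pump were followed in white adipose tissue from female mice of the inbred strain C57BL/6 that ate a high fat diet or normal chow. The members are 44 genes chosen by name for their place in the lysosome: 11 cathepsins and legumain, 9 enzymes that cut sugar chains, 8 lipid-handling proteins and phosphatases, 8 membrane proteins, 7 subunits of the pump and Tfeb, a transcription factor. They were chosen with earlier results of these data known, so their counts beside those of all genes are no independent test. All 44 have at least 1 probe on the array, with 95 probes in all. Of the 44, 43 passed a filter that asked for detection on at least 1 array (a deposited detection p under 0.01), and they belong to 11384 genes that did so. Detected on all 4 arrays were 40. Ctsl passed through the high fat arrays alone, and Gla and Tfeb through F0 and F2, while Atp6v0d2 was detected nowhere.

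The tissue came from 4 groups aged 9 months and fed for 9 months: high fat mice of the F0, F1 and F2 generations, which received 60% of their energy as fat, and mice on chow. Each group is 1 Illumina bead array of mixed RNA, from 4 samples for each high fat generation and 3 for chow, and whether the samples of a mix were separate animals is not stated in the labels. Between 37.8 and 40.9% of 45281 probes were detected per array. No group has a second array, so differences between single arrays are given by their size, with no replicate check. A gene counts as higher or lower at 2-fold or more, provided that the brighter array detected it. As a technical gauge, the SD between probes of 1 gene was 0.274, 0.262 and 0.291 on the log2 scale for F0, F1 and F2 against chow over 3069 genes, and 0.332, 0.426 and 0.485 over the 19 members with several probes.

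The lysosome is the acidic compartment in which cells break down proteins, sugar chains and lipids that arrive by endocytosis, phagocytosis or autophagy. Its enzymes work at a low pH that a rotary proton pump, the V-ATPase, maintains, and many of its genes respond to TFEB through a DNA run called the CLEAR element, centred on CACGTG. In obese adipose tissue, macrophages are known for a large lysosomal system that takes up lipid released by adipocytes.

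The core of the CLEAR element, TCACGTGA, was looked for in promoters because TFEB is known to act on many lysosomal genes through it. RefSeq promoters (build GRCm38.p6, 250 bases before to 50 after a gene's start) matched 36 of the 44 members by symbol. The run stood in 7 of these 36 members, or 19.4%, against 8.33% of 108 other genes of lysosome-related lists, 2.13% of 9172 genes tested on the arrays and 1.12% of all 27025 genes in the promoter table. It reads the same on both strands and contains the shorter run CACGTG, which stood in 14 of the 36 (38.9%), against 21.3% of the other listed genes and 11.5% of the genes tested. A match is a description of letters in this window and not evidence of binding. The 7 members that hold the longer run are shown with it in capitals, 5′ to 3′ on the gene's own strand.
Ctsa, chr2:164833740-164833784, plus strand, 2 runs: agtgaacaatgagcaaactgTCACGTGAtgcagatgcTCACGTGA
Ctsd, chr7:142387899-142387946, minus strand: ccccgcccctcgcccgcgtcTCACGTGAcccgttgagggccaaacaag
Gla, chrX:134601173-134601253, minus strand, 2 runs: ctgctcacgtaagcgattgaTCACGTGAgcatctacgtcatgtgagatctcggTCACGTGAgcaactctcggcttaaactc
Cln3, chr7:126583331-126583378, minus strand: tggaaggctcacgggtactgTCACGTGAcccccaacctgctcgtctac
Mcoln1, chr8:3500453-3500500, plus strand: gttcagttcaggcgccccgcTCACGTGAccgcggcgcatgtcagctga
Atp6v0d1, chr8:105566061-105566088, minus strand: agagccaggccctactgcggTCACGTGA
Atp6v1a, chr16:44139364-44139411, minus strand: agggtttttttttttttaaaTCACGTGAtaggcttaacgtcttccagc

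In Ctsa the second run begins 5 bases into the transcript, and in Atp6v0d1 the run begins 4 bases before the start site and crosses it. Lamp1, which encodes an abundant glycoprotein of the lysosomal membrane, holds the shorter run 4 times within 61 bases of its start and the longer one not once. It is shown because of that cluster.
Lamp1, chr8:13159080-13159160, plus strand, CACGTG in capitals: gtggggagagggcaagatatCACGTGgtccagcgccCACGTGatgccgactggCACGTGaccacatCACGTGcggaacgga
For contrast, the 80 bases before the start of Ctsk and Ctss are given, whose promoter windows hold neither run. On the normalized log2 scale these members had the widest mean difference from chow. Of the next members in that order, Lgmn holds CACGTG in 1 of its 2 windows and Ctsl in its only one.
Ctsk, chr3:95499130-95499209, plus strand: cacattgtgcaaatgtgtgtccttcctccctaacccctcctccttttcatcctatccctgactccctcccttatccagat
Ctss, chr3:95526706-95526785, plus strand: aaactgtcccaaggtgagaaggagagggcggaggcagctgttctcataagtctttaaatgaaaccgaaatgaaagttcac

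Most of the 43 detected members were higher on each high fat array than on chow. Since earlier results of these data were known when the members were chosen, the counts are a description. Above chow by any amount were 40 on F0, 41 on F1 and 40 on F2, where 49%, 48.3% and 43.6% of all genes were. On the F0 array 13 members were at least 2-fold higher, where 6.69% of all genes tested were, and 0 were lower (6.65% of all genes). On the F1 array 15 were higher (7.38% of all genes) and 0 lower (6.31%), and on the F2 array 17 were higher (9.35%) and 0 lower (8.24%). With only genes detected on all 4 arrays, which leaves out Ctsl, 12, 14 and 16 of 40 members were higher on F0, F1 and F2. Of all 9013 such genes, 615, 637 and 743 were. The median log2 difference over the 43 members was 0.73 for F0, 0.80 for F1 and 0.85 for F2, against medians of -0.01, -0.02 and -0.09 over all genes tested. At least 2-fold higher on all 3 high fat arrays were 12 members (4.07% of all genes), and 0 were lower on all 3 (4.39%). All 3 high fat arrays lay above chow for 38 of the 43 members (31.9% of all genes) and all 3 below for 1 (38.7%). The 3 comparisons share the chow array, so they are not independent of each other, and in whole tissue a change in the share of a cell type cannot be told apart from a change in RNA per cell.

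**Figure D1:**
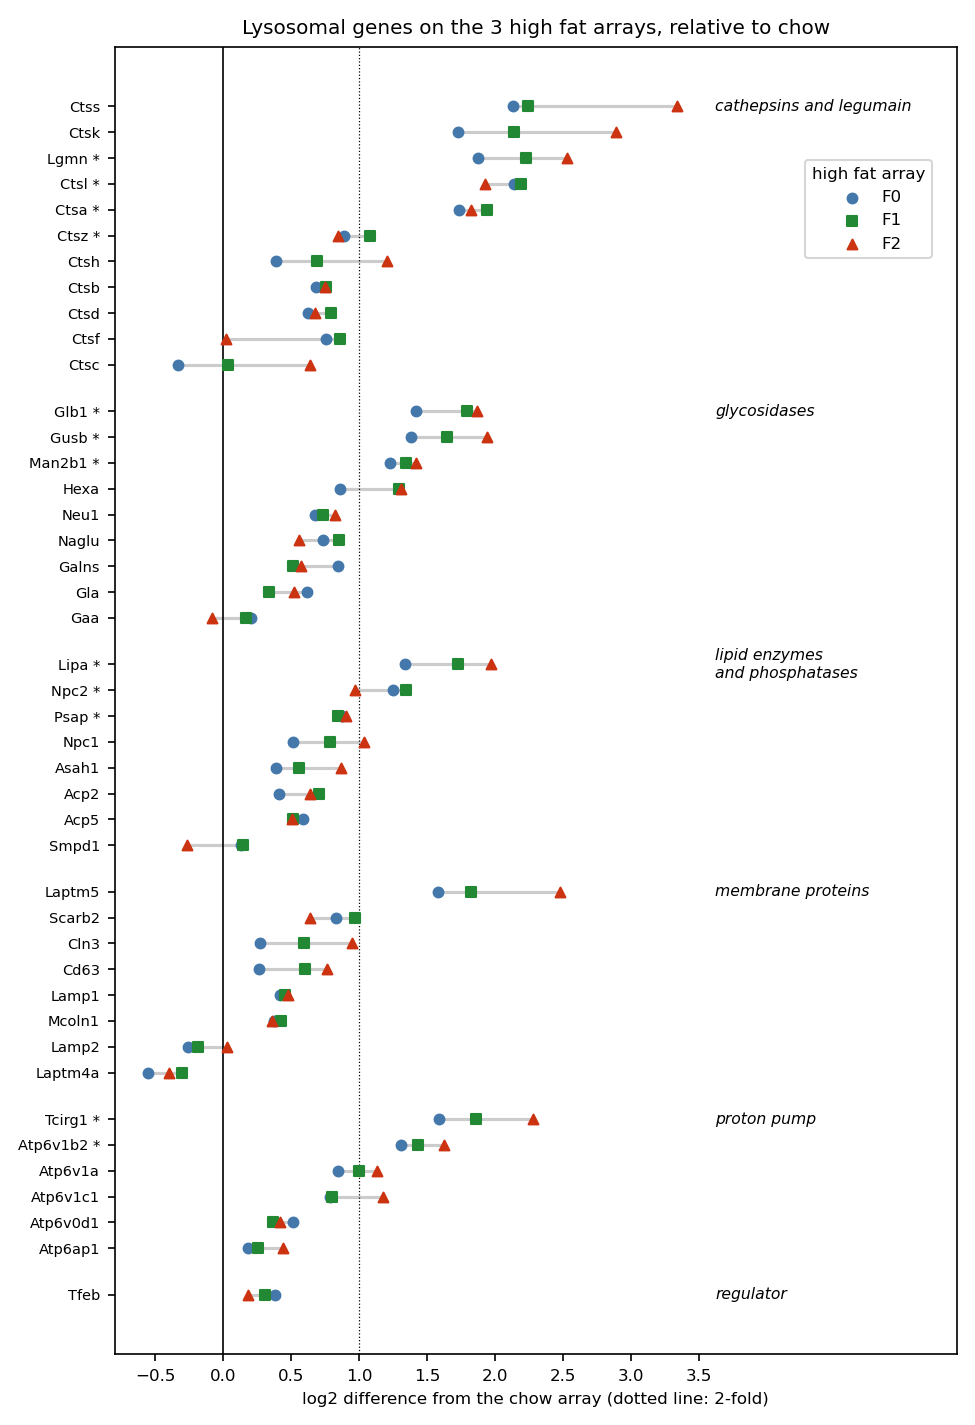
Log2 difference of the 43 detected members from the chow array (horizontal axis), by role, with 1 point for each of the F0, F1 and F2 arrays and a grey line over their range. The zero line is chow, and an asterisk marks the 12 members that rose by limma. Most points lie to the right of zero and all 3 Laptm4a points to its left.

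When the 3 high fat arrays were treated as samples of one diet and set against the 1 chow array, 12 members rose by limma after Benjamini-Hochberg adjustment over all genes tested (2.9% of all genes rose) and 0 fell (3.41%). At an unadjusted p under 0.05, 29 members were higher (11.1% of all genes) and 0 lower (13.8%). The 12 were Ctsa, Ctsl, Ctsz and Lgmn among the proteases, Gusb, Glb1 and Man2b1 among the glycosidases, Lipa, Npc2 and Psap among the lipid-handling proteins, and Tcirg1 and Atp6v1b2 of the pump, with folds from 1.83 to 4.63 and adjusted p from 0.0146 to 0.0487. The labels do not make the 3 generations replicates of one another, the p-values rest on the spread among them, and the chow pool adds none, so a peculiarity of that pool cannot be told apart from diet. The count depends on which array is left out: it was 15 without F0, 0 without F1 and 29 without F2, where 570, 1 and 1569 of all genes rose, and it was 5 with the authors' value table, which called 4 of the 12 (Ctsa, Ctsl, Man2b1 and Atp6v1b2). Ctsl had to differ, since it entered through the high fat arrays alone. With only genes detected on all 4 arrays tested, it leaves the list, Laptm5 joins it and the count is again 12.

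The cathepsins and legumain are the proteases of the lysosome. Of 11, 5 were at least 2-fold higher on F0, 6 on F1 and 6 on F2, and 4 rose by limma, with a median difference of 0.94 (mean of the high fat arrays minus chow, log2). Each of these counts includes Ctsl, which had to differ. Lgmn, legumain, which cuts after asparagine and trims other cathepsins, had deposited intensities of 4269, 5527 and 6846 on the F0, F1 and F2 arrays, against 1191 on chow. It rose by 2.21 ± 0.28 (log2, limma's SE, adjusted p = 0.0219), and the 3 high fat values were all over 3 times that of chow. Ctsa, the protective protein that stabilises neuraminidase and beta-galactosidase, had 3644, 4274 and 3795 on F0, F1 and F2, against 1123 on chow. It rose by 1.83 ± 0.16 (limma, adjusted p = 0.0146). Its 4 probes detected on all 4 arrays disagreed in size, with mean differences from 0.54 to 1.85. With the mean over probes Ctsa differed by 1.10 and was no longer called.

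Ctsl, a cysteine protease, had 127, 130 and 121 on F0, F1 and F2, against 56.4 on chow, where it was not detected. With the faintest signal that the chow array detected taken as its chow level, it was at least 3.16-fold, 3.27-fold and 2.72-fold higher on F0, F1 and F2. The mean difference was 2.09 ± 0.24 as measured (limma, adjusted p = 0.0199) and 1.60 with chow at that bound (limma, adjusted p = 0.0265). As Ctsl passed the filter through the high fat arrays alone, it had to differ, and neither p-value counts as support. Ctsz, a carboxypeptidase, had 1298, 1485 and 1238 on F0, F1 and F2, against 726 on chow, and rose by 0.94 ± 0.17 (limma, adjusted p = 0.0487).

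By the mean over the high fat arrays on the normalized log2 scale, the widest differences among the members belonged to a pair that missed the threshold. By deposited intensity, the ratio of the high fat mean to chow was widest for Lgmn, at 4.66. Ctsk followed at 4.61, Laptm5 at 4.09 and Ctss at 3.74. Ctss, cathepsin S, which trims the invariant chain of MHC class II in antigen-presenting cells, had 227, 246 and 496 on F0, F1 and F2, against 86.4 on chow. On the normalized scale it was 4.39-fold, 4.74-fold and 10.1-fold higher than chow, a mean difference of 2.57 ± 0.53 (limma, adjusted p = 0.0602). Ctsk, a collagen-degrading cathepsin best known from osteoclasts, had 2240, 2946 and 4604 on F0, F1 and F2, against 708 on chow. It was 3.31-fold, 4.40-fold and 7.41-fold higher, a mean difference of 2.25 ± 0.45 (limma, adjusted p = 0.0583). In both genes the F2 array stood well above F0 and F1, which widened the spread among the high fat arrays. Of 9 osteoclast and giant cell markers 5 were detected, with medians of -0.00, 0.10 and 0.83 on F0, F1 and F2, and by limma 0 rose and 1, Mmp9, fell. Calcr, Ocstamp, Oscar and Itgb3 were detected on no array.

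The other cathepsins lay nearer to chow. Ctsb, a major cysteine cathepsin of most cells, was 1.60-fold, 1.69-fold and 1.68-fold higher on F0, F1 and F2 (0.73 ± 0.15, limma, adjusted p = 0.0581). Ctsd, the aspartic protease of the lysosome, was 1.54-fold, 1.74-fold and 1.60-fold higher (0.70 ± 0.22, limma, adjusted p = 0.142). Ctsc, which activates the serine proteases of mast cells, neutrophils and T cells, had 1104, 1427 and 2068 on F0, F1 and F2, against 1371 on chow, so the high fat arrays lay on both sides of chow. Its 2 other probes had mean differences of -0.08 and -0.06. Mast cell markers had medians of -1.32, 0.11 and 1.74 over 6 genes on the same arrays. Neutrophil markers had 0.87, -0.19 and 0.48 over 4 genes, and T cell markers 0.19, 0.33 and 2.60 over 8. The part of these cells in the Ctsc values was not tested. Ctsh, an aminopeptidase, had differences of 0.39, 0.69 and 1.20 on F0, F1 and F2. Ctsf, a papain-like cathepsin, had 346, 375 and 237 on F0, F1 and F2, against 241 on chow. F2 was thus the highest array for Ctsh and, for Ctsf, the lowest of the 4 before normalization.

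**Figure D2:**
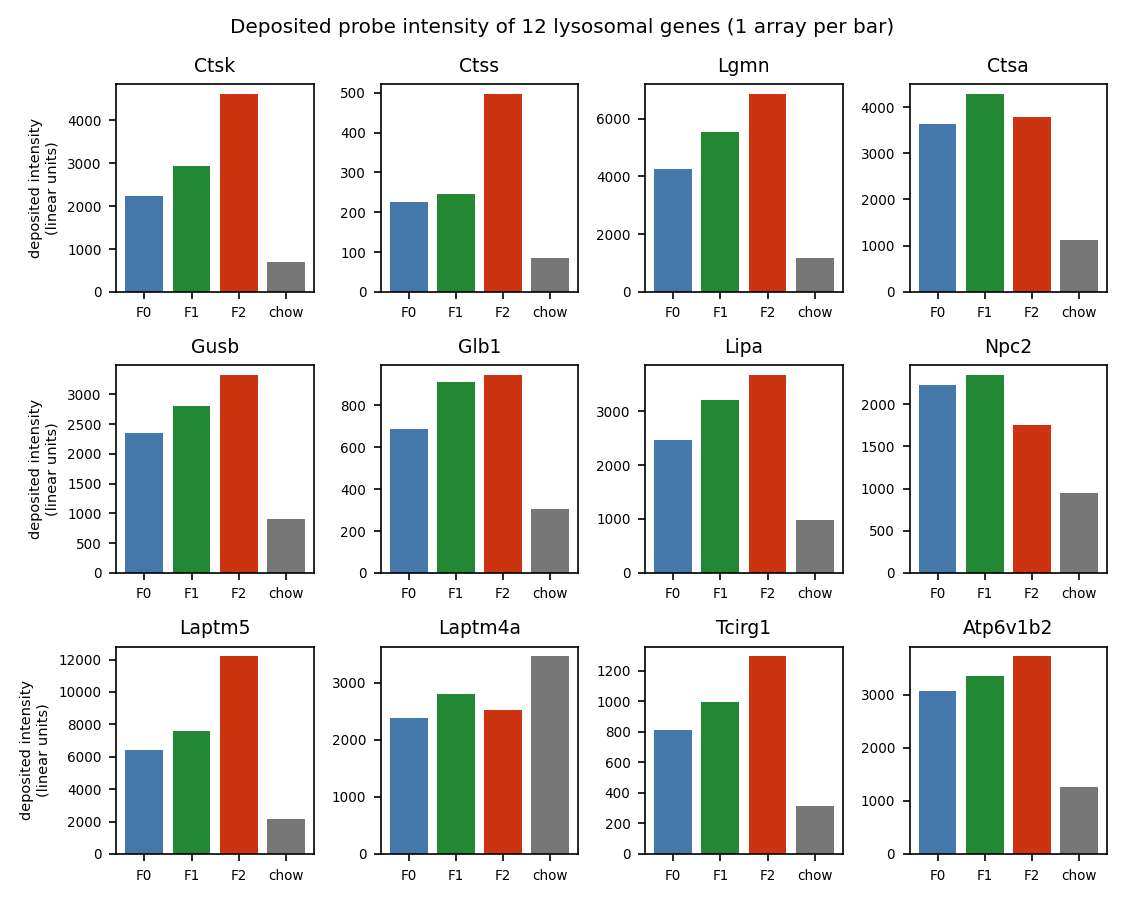
Deposited intensity (vertical axis, linear units, from 0, a scale of its own for each gene) of 12 members on the F0, F1, F2 and chow arrays, 1 array per bar. Chow is the lowest bar for 11 of the 12 genes and the highest for Laptm4a. F2 is the highest bar for 9, among them Ctsk, Ctss and Laptm5.

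Glycosidases and their fellow enzymes strip sugars and sulfate from glycoproteins, glycolipids and glycosaminoglycans. Of 9, 3 were at least 2-fold higher on F0, 4 on F1 and 4 on F2, and 3 rose by limma, with a median difference of 0.74. Gusb, beta-glucuronidase, had deposited intensities of 2351, 2796 and 3317 on F0, F1 and F2, against 908 on chow, and rose by 1.66 ± 0.25 (limma, adjusted p = 0.0315). Its 3 other probes were higher too, by 1.35 to 2.04 over the mean of the high fat arrays. Glb1, beta-galactosidase, had 689, 912 and 943 on F0, F1 and F2, against 303 on chow, and rose by 1.69 ± 0.24 (limma, adjusted p = 0.0273). A second Glb1 probe, annotated to another transcript record and dim on all 4 arrays, had a difference of -0.40, and with the mean over probes Glb1 differed by 0.646 and was no longer called. Man2b1, lysosomal alpha-mannosidase, had 3481, 3860 and 3923 on F0, F1 and F2, against 1515 on chow, and rose by 1.33 ± 0.16 (limma, adjusted p = 0.0207).

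Hexa, the alpha chain of hexosaminidase, had 1954, 2598 and 2514 on F0, F1 and F2, against 1071 on chow (1.15 ± 0.24, limma, adjusted p = 0.0600). All 3 high fat values were above chow, with F0 the lowest. Neu1, a sialidase that forms a complex with Ctsa and Glb1, was 1.60-fold, 1.66-fold and 1.77-fold higher, a narrower difference than those of its partners in each generation. Naglu and Galns, enzymes of heparan and keratan sulfate breakdown, had mean differences of 0.71 and 0.64 (limma, adjusted p = 0.138 and 0.198). Gaa, the acid alpha-glucosidase that degrades glycogen, had 854, 844 and 720 on F0, F1 and F2, against 768 on chow, and lay nearest to chow in this group. Gla, alpha-galactosidase A, was dim, at 73.3, 65.7 and 68.9 on F0, F1 and F2, against 55.0 on chow, and was detected on F0 and F2 only.

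Lipid-handling members degrade the cholesterol esters, triglycerides and sphingolipids that reach the lysosome, or carry the products out. Of the 8 in their group, which includes the phosphatases, 2 were at least 2-fold higher on F0, 2 on F1 and 2 on F2. Only Lipa was so on all 3 arrays, beside Npc2 on F0 and F1 and Npc1 on F2. By limma 3 rose, with a median difference of 0.69. Lipa, lysosomal acid lipase, which cleaves cholesterol esters and triglycerides, had 2468, 3207 and 3662 on F0, F1 and F2, against 986 on chow. It rose by 1.68 ± 0.27 (limma, adjusted p = 0.0371), with its other probe at 1.85 over the mean of the high fat arrays. Npc2, the soluble carrier that hands cholesterol to the membrane protein NPC1, had 2224, 2342 and 1757 on F0, F1 and F2, against 944 on chow, and rose by 1.19 ± 0.20 (limma, adjusted p = 0.0411). For Lipa the F2 array was the highest, whereas for Npc2 it was the lowest of the high fat arrays and still above chow.

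Npc1 had 1982, 2336 and 2692 on F0, F1 and F2, against 1362 on chow (0.78 ± 0.24, limma, adjusted p = 0.133). Its other probes detected on all 4 arrays had mean differences of 0.81 and 0.11. The last of these ran the other way over the generations, at 0.50, 0.23 and -0.39 on F0, F1 and F2. Psap, prosaposin, the precursor of the activators of sphingolipid breakdown, had 18248, 17897 and 19683 on F0, F1 and F2, against 10358 on chow, and rose by 0.87 ± 0.15 (limma, adjusted p = 0.0394). The 3 high fat values of Psap were nearly level. Asah1, acid ceramidase, was 1.31-fold, 1.47-fold and 1.82-fold higher (limma, adjusted p = 0.189). Smpd1, acid sphingomyelinase, had 1752, 1767 and 1307 on F0, F1 and F2, against 1571 on chow, so chow lay inside the range of the high fat arrays. The acid phosphatases Acp2 and Acp5 had mean differences of 0.58 and 0.54 (limma, adjusted p = 0.160 and 0.207). The 3 other Acp2 probes did not agree, at 0.64, 0.15 and -0.66.

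Membrane proteins of the lysosome differed least from chow as a group. Of 8, 1 was at least 2-fold higher on each high fat array and 0 rose by limma, with 3 at an unadjusted p under 0.05 and a median difference of 0.50. The exception in size was Laptm5, a transmembrane protein of blood cells, with 6425, 7619 and 12194 on F0, F1 and F2, against 2138 on chow (1.96 ± 0.37, limma, adjusted p = 0.0505). Its relative Laptm4a, expressed in most tissues, went the other way with 2384, 2802 and 2520 on F0, F1 and F2, against 3458 on chow (-0.42 ± 0.17, limma, adjusted p = 0.213). Laptm4a was the 1 member below chow on all 3 high fat arrays. Lamp1 had 5931, 6121 and 6023 on F0, F1 and F2, against 4444 on chow, a difference of 0.45 ± 0.14 (limma, adjusted p = 0.141), with nearly equal high fat values.

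Scarb2, the receptor that brings glucocerebrosidase to the lysosome, was 1.78-fold, 1.96-fold and 1.56-fold higher on F0, F1 and F2 (limma, adjusted p = 0.0974). Its other probe, dim but detected on all 4 arrays, had log2 differences of 0.68, 0.07 and -0.11, so the size depends on the probe. Cd63, a tetraspanin of late endosomes, had differences of 0.26, 0.60 and 0.76, and Cln3, a membrane protein lost in juvenile Batten disease, 0.27, 0.59 and 0.95, both with F2 the highest. Mcoln1, the calcium channel mucolipin, had differences of 0.37, 0.42 and 0.36, nearly the same in each generation.

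Lamp2, partner of Lamp1 and needed for the fusion of autophagosomes with lysosomes, split by transcript. Of its 7 probes, 5 that are annotated to a RefSeq transcript were detected on all 4 arrays. The 2 probes of transcript NM_010685, one of which represents the gene here, had differences of -0.26 and -0.21 on F0, -0.18 and -0.10 on F1, and 0.03 and 0.00 on F2. The 3 probes of transcript NM_001017959 had differences of 0.45 to 0.54 on F0, 0.61 to 0.78 on F1 and 0.47 to 0.73 on F2. The probe sets did not overlap on any of the 3 arrays, but on F2 the gap between their nearest probes was under the members' SD between probes of 1 gene. The value for the whole gene thus depends on the probe taken: -0.14 by its brightest probe and 0.20 by the mean over its detected probes. Neither was called by limma, with an adjusted p of 0.674 for the first.

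**Figure D3:**
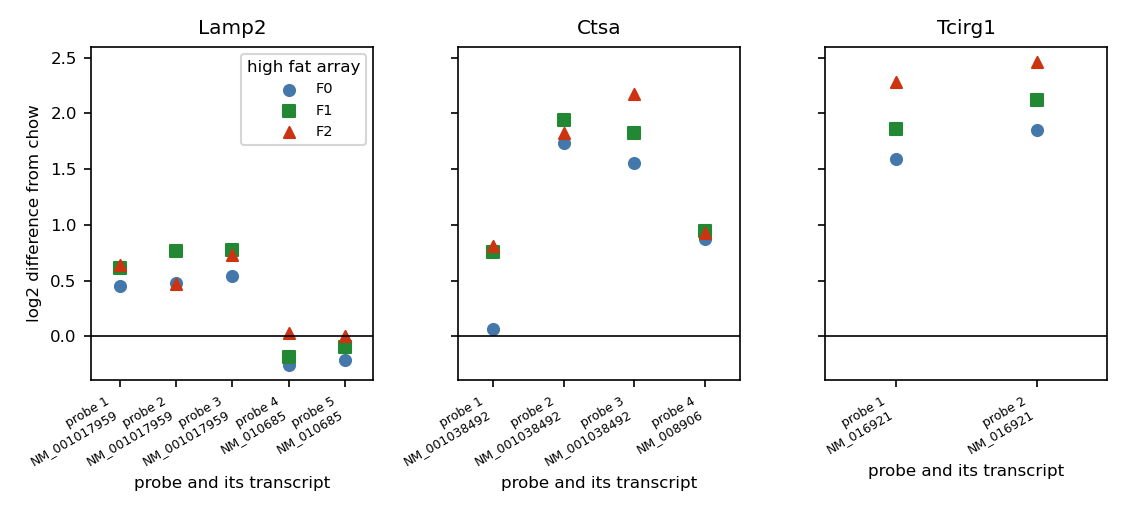
Log2 difference from chow (vertical axis) of each probe of Lamp2, Ctsa and Tcirg1 detected on all 4 arrays, with 1 point for each high fat array. Lamp2 probes of NM_001017959 lie above zero and those of NM_010685 at or below 0.03, the 4 Ctsa probes range widely above zero, and both Tcirg1 probes lie above 1.5.

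The V-ATPase has a cytosolic V1 part that splits ATP and a membrane V0 part that passes protons. Of 7 members, 2 were at least 2-fold higher on F0, 2 on F1 and 4 on F2, and 2 rose by limma, with a median difference of 0.96 over the 6 detected. Tcirg1, the a3 subunit of V0, is known for its role in osteoclasts and found in immune cells as well. Its deposited intensities were 814, 995 and 1293 on F0, F1 and F2, against 315 on chow. It rose by 1.91 ± 0.30 (limma, adjusted p = 0.0339), and a second probe detected on all 4 arrays was higher by 2.15. Its 2 further probes were detected on the high fat arrays and not on chow. Atp6v1b2, the B subunit of V1 found in most cells, had 3058, 3352 and 3719 on F0, F1 and F2, against 1256 on chow, and rose by 1.46 ± 0.18 (limma, adjusted p = 0.0219).

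Atp6v1a, the catalytic A subunit, had 707, 794 and 865 on F0, F1 and F2, against 437 on chow (0.99 ± 0.19, limma, adjusted p = 0.0514). Atp6v1c1, which joins the V1 and V0 parts, had 705, 719 and 923 on F0, F1 and F2, against 449 on chow (0.92 ± 0.22, limma, adjusted p = 0.0844). Both lay above chow on every high fat array and highest on F2. By the brightest probe, the differences were narrower for Atp6v0d1, the common d subunit, at 0.51, 0.37 and 0.42 on F0, F1 and F2. Its other probes, detected on all 4 arrays, had mean differences of 0.77, 0.85 and 0.37, so its size depends on the probe. The accessory subunit Atp6ap1 had narrower differences too, at 0.18, 0.25 and 0.44. Atp6v0d2, the d subunit known from osteoclasts, had 63.1, 57.0 and 52.5 on F0, F1 and F2, against 61.5 on chow, with detection p from 0.0983 to 0.737, so no difference is given. Tfeb itself was dim, at 75.0, 71.4 and 68.5 on F0, F1 and F2, against 64.0 on chow, and was not detected on F1 or chow.

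Set beside the promoter runs, the 7 members that hold TCACGTGA had a median difference from chow of 0.60, with a range of 0.38 to 1.83, and the 29 with a promoter and no such run had a median of 0.81, with a range of -0.42 to 2.57. Ctsa was the 1 of the 7 that rose by limma. The range of the first group lies within that of the second.

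Between generations the differences were smaller than those from chow. For F1 against F0, 0 members were at least 2-fold higher (0.835% of all genes) and 0 lower (0.0703%), with a median of 0.12 and a range of -0.33 to 0.44. For F2 against F1, 1 was higher (3.09%) and 0 lower (0.799%). That gene was Ctss, by 1.10 on the log2 scale, and it fell short of 2-fold without background correction and with an offset of 50. For F2 against F0, Ctsk and Ctss were higher (4.62%), by 1.16 and 1.21, and 0 were lower (2.53%), with a median of 0.19 over members against -0.05 over all genes tested.

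Of the 43 members, 23 stood in the ascending order F0, F1, F2 (24% of all genes) and 3 in the descending one (30.4%). Beyond Ctsk and Ctss, the widest F2 minus F0 differences were 0.97 for Ctsc, 0.90 for Laptm5, 0.82 for Ctsh, 0.69 for Tcirg1, 0.67 for Cln3 and 0.66 for Lgmn. At the other end lay Ctsf at -0.74, Smpd1 at -0.40, Gaa and Npc2 at -0.28 each and Galns at -0.27. The other 41 members lay less than 2-fold apart on F2 and F0. No test was made of these differences, since each generation is 1 array.

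Genes of other cell types moved along the same arrays. Of 20 macrophage markers 19 were detected and 10 rose by limma, and their summed normalized signal was 30233, 42266 and 49366 on F0, F1 and F2, against 9842 on chow. That of the 43 members was 103681, 114930 and 129369 on F0, F1 and F2, against 63845 on chow. Lipid-associated macrophage markers, of which 10 were detected and 5 rose, summed to 58768, 62131 and 60951 on F0, F1 and F2, against 33836 on chow, and were highest on F1. Adgre1, Csf1r and Lyz2, which define macrophages, were detected on all 4 arrays, with log2 differences of 1.99, 2.60 and 2.93 for Adgre1 on F0, F1 and F2. Detected B cell and plasma cell markers were higher on F2, with a median of 3.65 over 6 genes, against 0.26 on F0 and 0.09 on F1. All 6 were detected on F2, but only 4 on each of F0, F1 and chow. Any that passed the filter through F2 alone had to be highest there. Adipocyte markers, of which all 12 on the array were detected in each group, had medians of 0.31, -0.07 and -0.52 on F0, F1 and F2. T cell markers had medians of 0.19, 0.33 and 2.60 over 8 detected genes, and hepatocyte markers 0.36, 4.44 and 5.82 over 6. All 8 T cell markers were detected on F2 and 6 on each of F0, F1 and chow, so the rest had to be highest on F2. Hepatocyte markers were detected as 5, 6 and 6 genes on F0, F1 and F2, against 4 on chow, so the same limit can hold there. Of these 6, 1 went the other way, at least 2-fold lower than chow on all 3 high fat arrays (4.39% of all genes). The summed normalized signal of the hepatocyte list was highest on chow, at 15358, against 5162, 7399 and 12008 on F0, F1 and F2. Mesothelial markers had medians of -3.05, -2.67 and -2.24 on F0, F1 and F2, and 5 of 6 detected genes fell by limma. Skeletal muscle markers had medians of -2.63, -2.55 and -2.59, and 5 of 8 fell. All 8 muscle markers were detected on chow, but only 3, 3 and 4 on F0, F1 and F2. For mesothelial markers these counts were 6 on chow and 4, 4 and 5. Markers of both lists that passed the filter through chow alone had to be lower on the high fat arrays. The part of these cell types in the lysosomal differences was not tested.

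Other lysosomal genes, outside the 44 members, were nearer to chow by their medians. Of 24 detected hydrolases and activators 3 rose and 0 fell by limma, with a median difference of 0.40, and of 24 membrane proteins and transporters 3 rose and 0 fell, with a median of 0.32. Pld3, a lysosomal nuclease, rose by 2.23, Grn, progranulin, by 1.35, and Dnase2a, the acid DNase, by 1.23, while Ctse, cathepsin E, differed by 1.28 ± 0.67 (limma, adjusted p = 0.0178, 0.0308, 0.0416 and 0.318 in that order). Slc15a3, a lysosomal peptide transporter, rose by 4.02, Slc11a1, the metal transporter of phagosomes, by 2.09, and Tpcn2, a two-pore channel, by 1.97, while Mcoln2, not detected on chow, differed by 1.52 ± 0.46 (limma, adjusted p = 0.0129, 0.0234, 0.0198 and 0.128). Of 13 further detected pump subunits Atp6v0a1 rose, by 1.33 (limma, adjusted p = 0.0250), and 0 fell, with a median of 0.34.

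Further lists hold genes that supply or control the lysosome or that inhibit proteases. Of 15 detected genes that sort enzymes to the lysosome 0 rose and 0 fell by limma, with 1 higher at an unadjusted p under 0.05 and a median of 0.21. Ap1b1, a subunit of the adaptor that loads enzymes into vesicles, was the widest at 0.62. Of 13 detected TFEB relatives and mTORC1 docking genes 0 rose and 0 fell, with 3 higher and 1 lower at an unadjusted p under 0.05 and a median of 0.06. The GTPase gene Rragb had the widest difference, at -1.08 ± 0.35 (limma, adjusted p = 0.15), and was not detected on F0 or F1. Of 22 autophagy genes 0 rose and 0 fell, with 4 higher at an unadjusted p under 0.05 and a median of 0.18, and Vps18, a subunit of the lysosomal tethering complex, was the widest at 0.96. Among 6 detected genes listed as cathepsin inhibitors, Serpina3n, a secreted inhibitor of serine proteases, rose by 1.70 and Cstb, cystatin B, by 1.42 (limma, adjusted p = 0.0194 and 0.0198). In this list 0 fell and 4 were higher at an unadjusted p under 0.05. Its median was 0.77, close to that of the members at 0.74.

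**Figure D4:**
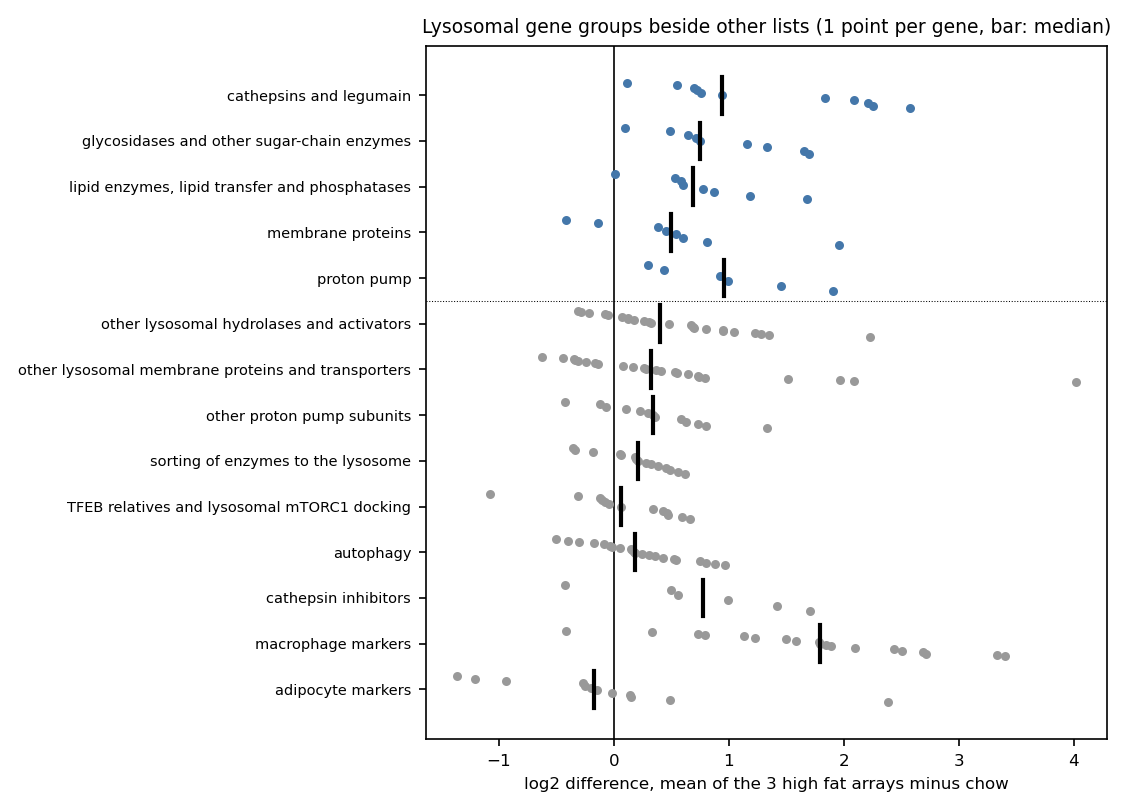
Log2 difference of the mean of the 3 high fat arrays from chow (horizontal axis) for the members by role (5 upper rows, blue) and for other lists (grey), 1 point per gene, with a bar at each list's median. The members' medians lie between 0.50 and 0.96, those of autophagy and sorting genes at 0.18 and 0.21, and that of macrophage markers at 1.79.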

How the data were processed

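Biotin-labelled cRNA of mixed white adipose RNA was hybridised to 4 Illumina mouse arrays, per the labels' protocols. GenomeStudio 2010.2 appears in the submitters' processing notes. In the table that the authors deposited, each probe has an intensity on a linear scale, with the same mean of 274.4 on each array (a scaling the labels do not state), and a deposited detection p-value. The authors' value table, a straight-line function of that intensity with values below 0, with medians of 5.69, 5.60, 6.24 and 6.17 on F0, F1, F2 and chow, served as an alternative. Background was corrected with nec of limma 3.58.1 in R 4.3.3 (offset 16, with the negative control level estimated through those p-values), followed by quantile normalization and log2. The platform annotation, updated through gene IDs, gave 1 symbol to 34885 of 45281 probes, several to 18 and none to 10378. The brightest detected probe stood for its gene. The 3 high fat arrays were compared with chow by limma (lmFit, then eBayes allowing a trend with signal), two-sided, with 2 residual degrees of freedom and Benjamini-Hochberg adjustment at 0.05 over 11384 genes, and was tested on simulated data. Fold changes are on the scale of log2 of background-corrected signal with the offset, and a larger offset narrows those of dim genes. They can still be wider than the ratios of the deposited intensities, which are not background-corrected. For Ctsl the mean fold was 4.25 against a deposited ratio of high fat mean to chow of 2.23, and for Ctss 5.96 against 3.74. The number of arrays limits the precision.

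The members and lists were chosen with earlier results of these data known. All 44 members are given. Signals on every array are given for the 4 widest and 2 narrowest differences of each role group, or for any member of groups of 8 or fewer. Up to 4 genes with the widest difference were named from each pathway list. Ctsa, Ctsz and the named cell type markers fall outside this rule and were chosen after their values were seen. Promoters came from RefSeq, and protein sequences were not used here.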

Additional observations from a re-analysis of the deposited data

How the results depend on the processing

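The count of 12 members that rose was 5 with the authors' value table and ranged from 0 to 29 when 1 high fat array was left out. It was within 1.5 times of 12 under the other alternatives run, and 0 members fell under any of them. At 1.5-fold, 26, 29 and 29 members were higher on F0, F1 and F2 than on chow (15%, 15.5% and 16.6% of all genes) and 0 lower (15.3%, 14.8% and 19.4%). For F2 against F1 the count at 1.5-fold was 4 higher (6.94%) and 1 lower (7.65%), and for F2 against F0 9 higher (10.9%) and 1 lower (12.1%). The 1 member at least 2-fold higher on F2 than on F1 became 0 without background correction and 0 with an offset of 50, where the count over all genes was 188 and 201 in place of 352. Among members not called, Ctsc turned to -0.00883 and Lamp2 to 0.197 with the mean over probes. With 1 high fat array left out, Ctsc ranged from -0.150 to 0.337 and Smpd1 from -0.0651 to 0.140. Of the 12 that rose, Man2b1 and Atp6v1b2 were called under 12 of 13 alternatives, failing without F1, whereas Psap was called under 6 and Ctsz under 7. The cause was not tested. Over all genes, F0 against chow gave 762 higher and 757 lower, which became 756 and 1216 with the value table and 621 and 951 with median scaling. F1 against chow gave 840 and 718, or 853 and 1122 with the value table, and F2 against F0 gave 526 and 288, or 627 and 197 with median scaling. Limma's 330 that rose and 388 that fell became 144 and 790 with the value table. Dim members (Gla, Tfeb, Atp6v0d2 and Ctsl on chow) are limited by signal over background. Acp5 and Galns were detected on all 4 arrays but were dim too, with chow log2 signals of 5.02 and 5.03. The lowest detected log2 signal on chow was 4.82. Gla and Tfeb lay at the floor of the authors' value table on all arrays and gave no value there. Slides are not known, so no slide block was fitted. No paired analysis was possible because each group is 1 array.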
